A study of Mus musculus with 75 samples.

Results

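A set of 10 genes known from the trophoblast and from simple epithelia were followed across receptor and enhancer mutants of mouse embryonic stem cells. They are the keratins Krt7, Krt8, Krt18 and Krt19 and the transcription factors Hand1, Gata2, Gata3, Tfap2a, Tfap2c and Elf5. They were chosen by symbol, as genes known from this tissue, with earlier results of these data known, and are 10 of the 52535 entries of the receptor tables and of the 52636 entries of the enhancer table. All 10 were listed in each of the 3 count tables. After the filter on low counts 8 of the 10 were tested in the knockout table (not Krt7 and Elf5), 9 in the overexpression table and 9 in the enhancer table (not Elf5).

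The cells were of the E14 line, derived from blastocysts, and in all 23 RNA-seq libraries they had been treated with 2 µM retinoic acid (RA) for 24 h after withdrawal of LIF and the inhibitors of MEK and GSK3. No untreated RNA-seq library was used here, so no value measures a response to RA itself. The knockout table compared WT-RARX with Rarα-KO, Rxrα-KO and the double knockout RARX-DKO (n = 2 each). The overexpression table compared the vector control V-OE with Rarα-OE and Rxrα-OE (n = 2 each). The enhancer table compared WT-Cyp26 with Cyp26-E1-KO and Cyp26-E2-KO (n = 3 each), in which an enhancer labelled for the Cyp26 genes was deleted. The submitters call the replicates biological. Whether a mutant group is 1 clone, which promoter drives the overexpressed receptors and where the deletions lie are not given in the sources used here. The columns of the enhancer mutants carry short codes that were matched to E1 and E2 through similar codes of other files, and this match is unsure. The titles of the E2 RNA samples lack the word KO and were read as its deletion.

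The trophectoderm is the outer epithelium of the blastocyst and gives rise to the trophoblast of the placenta. GATA2, GATA3, TFAP2A, TFAP2C and ELF5 are transcription factors of its regulatory network, and HAND1 is needed for trophoblast giant cells. Keratin filaments are obligate pairs of a type II chain (KRT7, KRT8) and a type I chain (KRT18, KRT19), and KRT8 with KRT18 is the pair of the earliest embryonic epithelia, parietal endoderm included. RA acts through heterodimers of RAR and RXR, and CYP26 enzymes degrade it.

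The promoter sequences of the keratins that moved most with receptor overexpression, and of Gata3, which was not called there but rose in both enhancer deletions, are shown with the searched motifs in capitals. They are RefSeq sequences of build GRCm38.p6, written 5′ to 3′ on the strand of the gene. Each ends before the start of the principal transcript of the gene in GENCODE vM21. Those of Krt7 and Gata3 lie inside the annotated gene, whose outermost start is further upstream. The searched motifs, on both strands, were AGGTCA (a hexamer bound by RAR and RXR), GCCNNNGGC (bound by AP-2 factors, the Tfap2 family) and AGATAA and TGATAA (bound by GATA factors), and none of the matches shown overlaps another.
Krt8, chr15:102004483-102004592, minus strand: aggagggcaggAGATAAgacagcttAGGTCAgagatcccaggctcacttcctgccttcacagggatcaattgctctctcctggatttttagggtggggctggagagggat
Krt18, chr15:102027966-102028179, plus strand: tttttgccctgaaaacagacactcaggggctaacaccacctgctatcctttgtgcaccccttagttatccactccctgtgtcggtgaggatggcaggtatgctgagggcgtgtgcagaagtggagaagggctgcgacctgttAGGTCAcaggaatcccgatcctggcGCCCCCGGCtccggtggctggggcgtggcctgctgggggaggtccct
Krt7, chr15:101412153-101412401, plus strand: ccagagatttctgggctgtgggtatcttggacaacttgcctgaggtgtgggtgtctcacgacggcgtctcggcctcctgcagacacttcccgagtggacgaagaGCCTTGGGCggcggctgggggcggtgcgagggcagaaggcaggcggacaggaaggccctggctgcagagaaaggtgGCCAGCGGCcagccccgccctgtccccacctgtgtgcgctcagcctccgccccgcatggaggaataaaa
Gata3, chr2:9878601-9878850, minus strand: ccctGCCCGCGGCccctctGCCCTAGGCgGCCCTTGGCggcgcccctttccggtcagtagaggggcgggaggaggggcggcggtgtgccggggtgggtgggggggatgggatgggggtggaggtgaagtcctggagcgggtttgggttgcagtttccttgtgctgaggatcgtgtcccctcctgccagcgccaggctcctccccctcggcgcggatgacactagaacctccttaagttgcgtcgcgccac
Relative to the RefSeq start, where -1 is the base before it, AGGTCA lay at -225 to -220 in Krt8 and at -108 to -103 in Krt18. Krt8 also held AGATAA at -239 to -234. GCCNNNGGC was found 1 time in Krt18, 2 times in Krt7 and 3 times in Gata3. Among 32536 promoter windows of 250 bases, 14.0% held AGGTCA, 13.8% GCCNNNGGC, 9.97% AGATAA and 7.79% TGATAA. The RefSeq table held windows for 7 of the 10 genes. Those of Krt19, Hand1 and Tfap2c were not among them. Of the 3 windows not shown, Gata2 held 1 GCCNNNGGC, and none of these letters was found in the windows of Tfap2a and Elf5. The RefSeq starts used for Gata2 and Elf5 lie 330 and 410 bases downstream of the GENCODE principal start. Their windows therefore lie wholly downstream of that start and do not describe the sequence before it.

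By the annotation (GENCODE vM21, build mm10) all 10 are protein-coding genes. Krt7 (chr15:101411043-101430313, plus strand), Krt8 (chr15:101996698-102004482, minus strand) and Krt18 (chr15:102028180-102032027, plus strand) lie on chromosome 15. Krt19 (chr11:100140810-100148665, minus strand) and Hand1 (chr11:57828705-57832818, minus strand) lie on chromosome 11. Gata3 (chr2:9857078-9890034, minus strand), Elf5 (chr2:103411688-103450989, plus strand) and Tfap2c (chr2:172549593-172558622, plus strand) lie on chromosome 2. Gata2 is at chr6:88193891-88207032 (plus strand) and Tfap2a at chr13:40715302-40738376 (minus strand). Whether strand was used in counting is not stated, and Krt7 and Krt8 each overlap 1 annotated gene of the other strand, Gata3 2 and Tfap2a 3. Reads of these partners cannot be told apart from theirs. A processed copy, Krt8-ps, had 0 to 10 counts per library.

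Depth was 7408691 to 13052102 counts per library in the knockout table, 7835519 to 11453063 in the overexpression table and 28397794 to 33601996 in the enhancer table. A count of 3, taken as the floor, was 0.230 to 0.408 CPM, 0.254 to 0.384 CPM and 0.0878 to 0.106 CPM. CPM are counts scaled to a common library size, here the TMM-scaled total. The engineered receptor genes, Rara and Rxra, checked the labels of the knockout and overexpression libraries. Rara was 104 ± 6.03 CPM (SD, n = 2) in WT-RARX and 4.86 ± 0.696 in Rarα-KO, and Rxra 42.1 ± 5.49 and 17.2 ± 1.57 in Rxrα-KO. The RARX-DKO libraries were 6.05 ± 0.679 CPM for Rara and 20.6 ± 9.88 for Rxra, the latter not passing the test (adjusted p = 0.0654). Rara was 52.0 CPM in V-OE and 108 in Rarα-OE, and Rxra 44.3 in V-OE and 203 in Rxrα-OE. Cyp26a1 was 377 CPM in WT-Cyp26 and 49.5 in Cyp26-E1-KO, and Cyp26b1 80.8 and 17.8 in Cyp26-E2-KO. Which enhancer belongs to which Cyp26 gene is not given in the sources used here. The Cyp26 values therefore do not check the match of E1 and E2. The 8 stem cell markers summed to 2310 to 8326 CPM per library and the 8 fibroblast markers to 3.46 to 15.8 CPM. The lowest value of each was that of Cyp26-E1-KO replicate 2. Cyp26-E1-KO replicate 2 stood apart. Its spread against the other 2 libraries of its group was 45.8 and 51.4 times counting variance, where these 2 differed by 6.08 times. The calls in Cyp26-E1-KO, the keratin ratio and the sums of trophectoderm, endoderm and extraembryonic mesoderm markers are therefore also given without it. In the overexpression table the replicates of a group differed by 1.89 to 2.27 times counting variance. In the knockout table they differed by 7.997 to 14.2 times, and in WT-Cyp26 and Cyp26-E2-KO by 5.58 to 9.64 times. A change of a given size is thus harder to call in the knockout table than in the overexpression table.

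With receptor overexpression the RNA of Krt8 and Krt18 rose to high levels, together with that of Gata2 and Tfap2c, in both Rarα-OE and Rxrα-OE. Krt18 rose 14.3-fold in Rarα-OE and 16.8-fold in Rxrα-OE, and Krt8 5.73-fold and 5.71-fold. Krt7 was also higher in both, from a level near the floor in V-OE. Gata3 stayed within the spread of its replicates. Krt19 and Hand1 were called higher in Rarα-OE alone and Tfap2a lower in Rxrα-OE alone, and each of these 3 calls was lost when 1 library was left out. Krt19 and Tfap2a did not pass the test of the difference between the receptors (-0.75, adjusted p = 0.136, and -0.38, adjusted p = 0.336, edgeR). Both comparisons share the V-OE libraries.

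Of the 9 tested genes, 7 were higher and 0 lower in Rarα-OE against V-OE (edgeR's quasi-likelihood test, Benjamini-Hochberg adjusted p under 0.05). Of all 16914 genes tested, 28.6% were called there, 14.7% higher and 13.9% lower. In Rxrα-OE 5 were higher and 1 lower, where 60.2% of all genes were called, 30.9% higher and 29.3% lower. The median log2 fold change of the 9 was 1.64 and 1.84, against 0.0032 and 0.0041 over all genes. Krt7, with 10 counts over both V-OE libraries, and Hand1 passed the filter only through groups where they were high, so these counts and medians are a description.

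Krt18, the type I partner of Krt8, had 14.3 and 16.0 CPM in the V-OE libraries, 218 and 216 in Rarα-OE and 251 and 259 in Rxrα-OE. Every library of either receptor stood far above the vector libraries, and the 2 receptors did not overlap. The log2 fold change was 3.83 (SE 0.07, adjusted p = 2.47e-43, edgeR) in Rarα-OE and 4.07 (SE 0.07, adjusted p = 1.2e-45) in Rxrα-OE. Rxrα-OE exceeded Rarα-OE by 0.23 (SE 0.05, adjusted p = 9.73e-05).

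Krt8 had 56.9 and 56.5 CPM in V-OE, 302 and 349 in Rarα-OE and 311 and 336 in Rxrα-OE. The groups of the 2 receptors overlapped and both lay above the vector. The log2 fold change was 2.52 (SE 0.06, adjusted p = 5.16e-26) and 2.51 (SE 0.06, adjusted p = 3.65e-27). The difference between the receptors had a 95% interval of -0.11 to 0.10 on the log2 scale (adjusted p = 0.958).

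Krt7, a type II keratin of simple ducts and trophoblast, had 0.604 and 0.510 CPM in V-OE, 4.22 and 4.23 in Rarα-OE and 14.1 and 15.3 in Rxrα-OE. The 3 groups were fully separate, in that order. As a description, given how it passed the filter, the log2 fold changes against V-OE were 2.90 and 4.70. Between the receptors, either of which alone would have passed it, Rxrα-OE exceeded Rarα-OE by 1.80 (SE 0.21, adjusted p = 1.96e-10). Krt19, the smallest type I keratin, had 0.483 and 1.22 CPM in V-OE, 2.41 and 3.20 in Rarα-OE and 1.27 and 1.94 in Rxrα-OE. It rose by 1.64 in Rarα-OE (SE 0.48, adjusted p = 0.00623), a call lost without V-OE replicate 1 (1.17, adjusted p = 0.113), without Rarα-OE replicate 2 (1.45, adjusted p = 0.0654) and with DESeq2 (adjusted p = 0.0714). Its change in Rxrα-OE, 0.89, was not called (adjusted p = 0.125), and passed without V-OE replicate 2 (1.74, adjusted p = 0.0448).

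Gata2 and Tfap2c rose in both, and more so in Rxrα-OE. Gata2 had 1.33 and 1.84 CPM in V-OE, 8.74 and 7.56 in Rarα-OE and 14.9 and 15.2 in Rxrα-OE, with no overlap between groups. The log2 fold changes were 2.35 (SE 0.27, adjusted p = 3.82e-10) and 3.22 (SE 0.24, adjusted p = 3.71e-17), and the difference between receptors was 0.88 (SE 0.18, adjusted p = 5.92e-05). Tfap2c had 17.0 and 13.0 CPM in V-OE, 34.0 and 34.5 in Rarα-OE and 53.6 and 52.9 in Rxrα-OE. It rose by 1.20 (SE 0.12, adjusted p = 2.47e-12) and 1.84 (SE 0.11, adjusted p = 2.64e-21), and the receptors differed by 0.64 (SE 0.10, adjusted p = 1.59e-07).

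Hand1, a bHLH factor, passed the filter only through Rarα-OE, so its values here are a description. It had 0.846 and 1.22 CPM in V-OE, 2.41 and 2.43 in Rarα-OE and 0.694 and 0.845 in Rxrα-OE. The Rarα-OE libraries lay above all others. The log2 difference of Rxrα-OE from Rarα-OE was -1.62. Between the receptors 4 of the 9 genes were higher and 1, Hand1, lower in Rxrα-OE, where 47.2% of all genes were called, 23.8% higher and 23.4% lower. Against V-OE its log2 difference in Rarα-OE was 1.20 (SE 0.47, adjusted p = 0.0476), at 7 to 24 counts per library. That call was lost when any 1 of the 4 libraries was left out (0.98 to 1.50, adjusted p 0.101 to 0.258) and with DESeq2 (adjusted p = 0.253). In Rxrα-OE its value was -0.42 (adjusted p = 0.534).

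Gata3 had 7.25 and 9.69 CPM in V-OE, 7.54 and 9.23 in Rarα-OE and 9.14 and 7.35 in Rxrα-OE, so all groups overlapped. The 95% intervals were -0.45 to 0.38 and -0.47 to 0.34 on the log2 scale. Tfap2a, the AP-2 factor of surface ectoderm and trophoblast, had 5.92 and 4.49 CPM in V-OE, 3.72 and 3.72 in Rarα-OE and 3.35 and 2.45 in Rxrα-OE. It fell by 0.85 in Rxrα-OE (SE 0.30, adjusted p = 0.0113), a call lost without V-OE replicate 1 (-0.65, adjusted p = 0.125), without Rxrα-OE replicate 2 (-0.62, adjusted p = 0.151) and with DESeq2 (adjusted p = 0.0827). In Rarα-OE its value was -0.47 (adjusted p = 0.234). Elf5, an ETS factor of the trophoblast stem cell, had 0 to 11 counts in the 6 libraries, with 11 and 8 in Rxrα-OE, and was not tested.

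**Figure D1:**
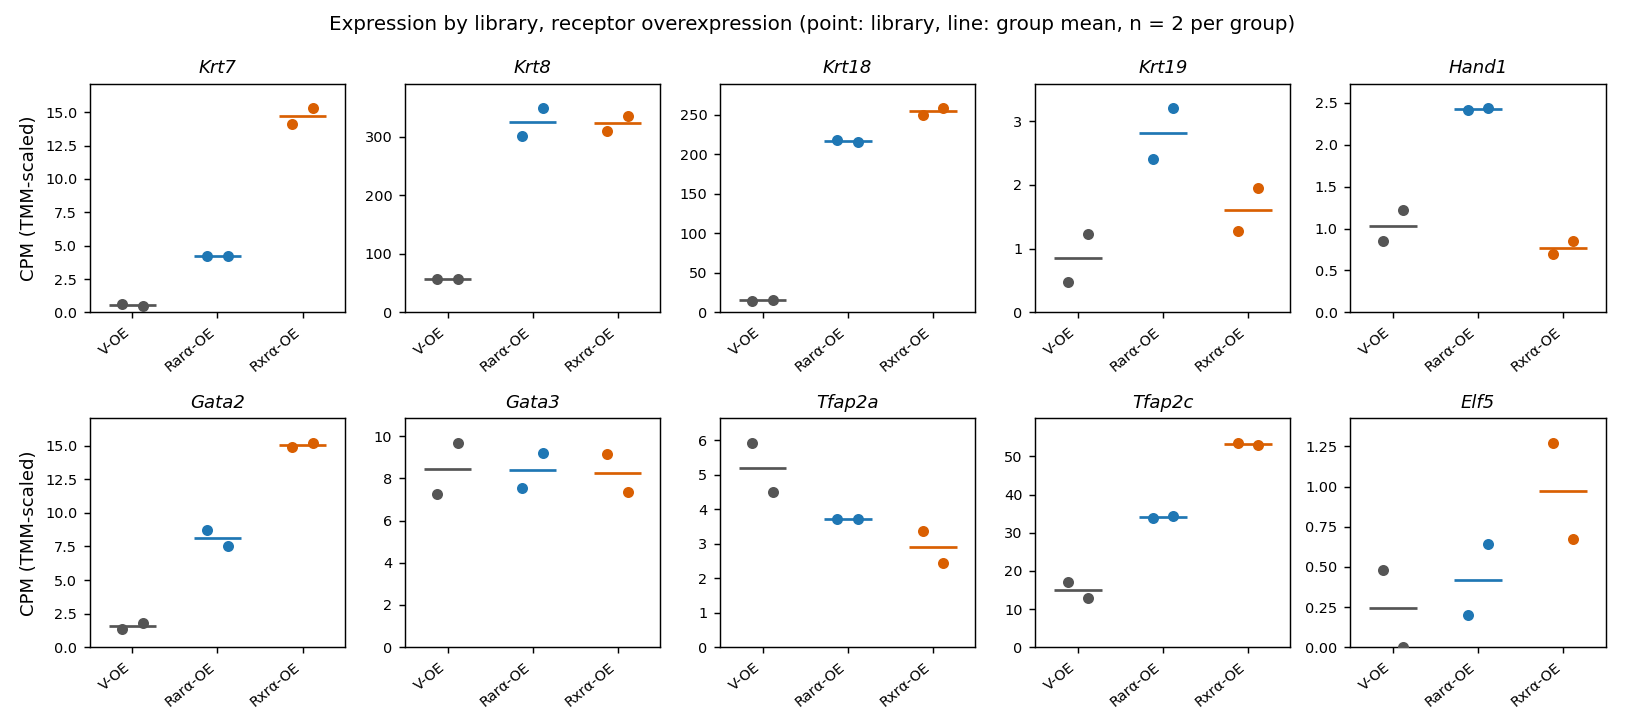
Level of each gene in CPM (vertical axis, linear from 0) in the V-OE, Rarα-OE and Rxrα-OE libraries. Points are libraries and lines group means (n = 2 per group); Krt8 and Krt18 rise to 302 to 349 and 216 to 259 CPM with either receptor, while Gata3 stays between 7.25 and 9.69.

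Markers of other cell types moved with these rises. The 14 markers of primitive and parietal endoderm, a tissue that also makes KRT8 and KRT18, summed to 472 to 500 CPM in V-OE, 1204 to 1216 in Rarα-OE and 1476 to 1480 in Rxrα-OE. Of the 13 tested, 12 were higher in Rarα-OE and 13 in Rxrα-OE. The defining markers Gata6 and Sox17 were not near 0: Gata6 was 23.1 CPM in V-OE and 110 and 111 in Rarα-OE and Rxrα-OE, and Sox17 3.31, 28.1 and 70.2. Gata4, also a defining marker, had a log2 fold change of 3.51 (SE 0.16) in Rarα-OE. The 7 markers of extraembryonic mesoderm summed to 175 to 177, 331 to 338 and 451 to 455 CPM, though not all rose. Of the 6 tested, 2 were higher and 1 lower in Rarα-OE, and 4 higher and 2 lower in Rxrα-OE. Over all genes 28.6% and 60.2% were called in these comparisons. Bmp4 fell by 1.47 and 1.69 on the log2 scale, and Kdr by 2.26 in Rxrα-OE, while Pmp22 rose by 2.15 and 3.19. The stem cell markers summed to 8172 to 8326 CPM in V-OE, 7208 to 7219 in Rarα-OE and 2749 to 2771 in Rxrα-OE. The part of these cell types in the keratin result was not tested. In bulk RNA fewer cells of a type and less RNA per cell cannot be told apart.

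Of the 6 defining trophectoderm markers, which include Krt7, Hand1, Gata3 and Elf5, 5 were tested. Of these 5, 3 were higher and 0 lower in Rarα-OE, 2 higher and 1 lower in Rxrα-OE, 4 higher and 0 lower in Cyp26-E1-KO and 3 higher and 0 lower in Cyp26-E2-KO. Over all genes 28.6%, 60.2%, 25.3% and 17.5% were called in these comparisons. The higher calls were Krt7, Cdx2 and Hand1 in Rarα-OE, and Krt7 and Cdx2 in Rxrα-OE. These genes passed the filter of the overexpression table only through raised groups, so its counts are a description. The 6 summed to 27.3 to 28.9 CPM in V-OE, 36.9 to 39.5 in Rarα-OE and 50.7 to 53.6 in Rxrα-OE. In the enhancer table they summed to 27.1 to 31.8 CPM in WT-Cyp26, 64.2 to 71.9 in Cyp26-E1-KO and 54.3 to 60.6 in Cyp26-E2-KO. Without Cyp26-E1-KO replicate 2 the E1 sums were 64.2 and 69.0 CPM. Members of the studied set make up 4 of the 6, so these sums are not independent of them. Cdx2, the homeobox factor of trophectoderm, was 0.627 ± 0.309 CPM (SD, n = 2) in V-OE, 2.07 ± 0.514 in Rarα-OE and 17.0 ± 1.26 in Rxrα-OE, a log2 difference of 4.77 given as a description, since at 7 and 4 counts in V-OE it passed the filter only through the raised groups. Eomes, the T-box factor of trophoblast stem cells, was 17.2, 20.7 and 10.4 CPM, a log2 change of -0.72 in Rxrα-OE (SE 0.15, adjusted p = 5.26e-05). Elf5, another defining marker, was at or under 11 counts in every library of the 3 tables.

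In the other trophoblast genes (22, of which 15 were tested) 7 were higher and 2 lower in Rarα-OE, and 8 higher and 4 lower in Rxrα-OE. The median log2 fold changes were 0.28 and 0.38, against 0.0032 and 0.0041 over all genes. Fgfr2, the FGF receptor, rose by 2.31 (SE 0.11) and Dlx3, a homeobox factor of the labyrinth, by 2.22 (SE 0.18) in Rarα-OE. In Rxrα-OE Dlx3 rose by 4.43 (SE 0.14), Gcm1, which drives syncytiotrophoblast, by 3.62 (SE 0.22) and Cited1 by 3.27 (SE 0.19). Among other intermediate filament and desmosome genes (22, of which 19 were tested) 5 were higher and 2 lower in Rarα-OE, and 10 higher and 5 lower in Rxrα-OE. For both lists, the share called over all genes was 28.6% in Rarα-OE and 60.2% in Rxrα-OE. Dsc2, a desmosomal cadherin, rose by 1.89 (SE 0.11) and 3.08 (SE 0.10), and Krt42, a type I keratin, fell by 1.06 (SE 0.22) and 2.68 (SE 0.27).

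The ratio of Krt18 to Krt8, both per length of their main transcript, was compared by library. It was 0.341 and 0.386 in V-OE, 0.984 and 0.841 in Rarα-OE and 1.10 and 1.05 in Rxrα-OE. With the receptors the RNA of the type I chain was thus about level with that of its type II partner. Protein was not measured. The 3 groups did not overlap. The ratio itself was not tested here, since no exact test of 2 libraries against 2 can reach 0.05, and the fits above test each gene on its own. Of the 9 libraries of the enhancer table the ratio was 0.711, 0.740 and 0.683 in WT-Cyp26, 0.417, 0.483 and 0.518 in Cyp26-E1-KO and 0.581, 0.556 and 0.693 in Cyp26-E2-KO. The E1 values lay below all WT-Cyp26 values (mean log2 difference -0.59, exact permutation p = 0.1, two-sided, the smallest that 3 against 3 allow), and 0.417 and 0.518 without replicate 2. For E2 the difference was -0.23 (exact permutation p = 0.2).

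**Figure D2:**
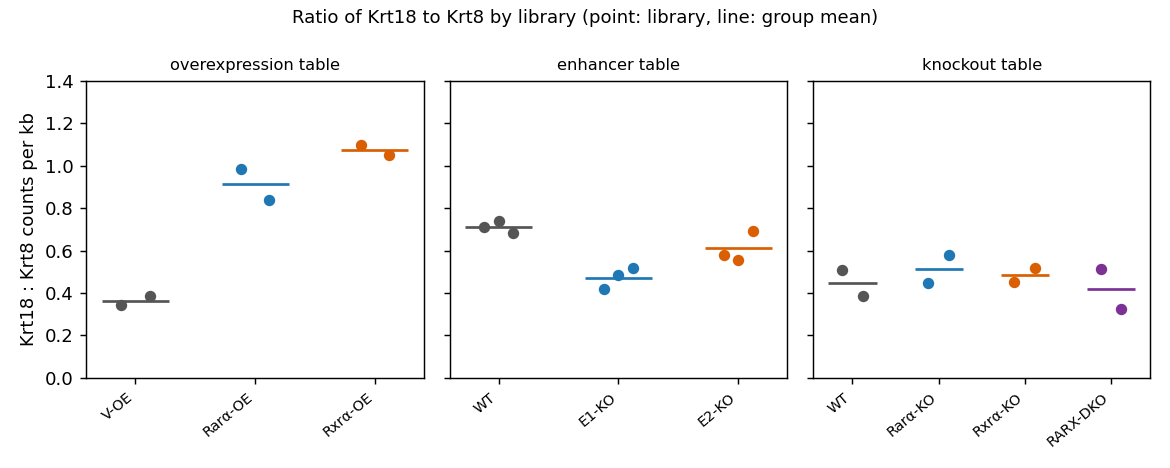
Ratio of Krt18 to Krt8 counts per kilobase of transcript (vertical axis, linear from 0) in each library of the 3 tables, with group means as lines. It lies at 0.341 and 0.386 in V-OE and at 0.841 to 1.10 with either receptor, and at 0.417 to 0.518 in Cyp26-E1-KO against 0.683 to 0.740 in its control.

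On the scale of CPM per kilobase of transcript, which allows genes to be compared, Krt8 was the most abundant of the 10 in V-OE at 29.0 ± 0.143 (SD, n = 2). Krt18 followed at 10.5 ± 0.865, Tfap2c at 5.28 ± 1.02, Gata3 at 2.63 ± 0.537 and Tfap2a at 1.82 ± 0.354. Below them Hand1 (0.543 ± 0.140), Krt19 (0.542 ± 0.332) and Gata2 (0.443 ± 0.100) did not differ beyond their spread. In Rxrα-OE Krt18 led at 177 ± 4.00, above Krt8 at 165 ± 9.02, with Tfap2c at 18.8 ± 0.159, Gata2 at 4.22 ± 0.0582 and Krt7 at 3.59 ± 0.205. In WT-Cyp26 Krt8 was again first at 16.8 ± 1.51, then Krt18 at 11.9 ± 0.687 and Tfap2c at 6.94 ± 0.410 (n = 3).

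The enhancer deletions moved a partly different subset. Hand1 and Gata3 rose most, 5.10-fold and 4.63-fold in Cyp26-E1-KO and 3.01-fold and 2.96-fold in Cyp26-E2-KO, with Krt19 and Tfap2a rising in both. Krt8 rose 1.56-fold in Cyp26-E1-KO and was not called in Cyp26-E2-KO. Krt18, Gata2 and Tfap2c did not pass the test in either. Both comparisons share the WT-Cyp26 libraries.

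Of the 9 tested genes 5 were higher and 0 lower in Cyp26-E1-KO against WT-Cyp26, where 25.3% of all 18768 genes were called, 13.1% higher and 12.1% lower. In Cyp26-E2-KO 4 were higher and 0 lower, where 17.5% of all genes were called, 9.28% higher and 8.20% lower. The median log2 fold change of the 9 was 0.90 and 0.91, against -0.0082 and 0.00011 over all genes.

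Hand1 had 1.43, 2.03 and 2.1 CPM in WT-Cyp26, 9.28, 8.93 and 10.2 in Cyp26-E1-KO and 4.84, 5.19 and 6.70 in Cyp26-E2-KO. The groups were fully separate. The log2 fold changes were 2.35 (SE 0.19, adjusted p = 9.52e-07, edgeR) and 1.59 (SE 0.19, adjusted p = 6.74e-05). Gata3 had 2.66, 3.43 and 2.47 CPM in WT-Cyp26, 10.8, 16.2 and 12.7 in Cyp26-E1-KO and 8.79, 8.25 and 8.31 in Cyp26-E2-KO. Again no library of a deletion overlapped the control. The log2 fold changes were 2.21 (SE 0.18, adjusted p = 8.26e-07) and 1.57 (SE 0.18, adjusted p = 4.12e-05). Tfap2a had 4.54, 3.33 and 2.90 CPM in WT-Cyp26, 6.28, 6.32 and 7.46 in Cyp26-E1-KO and 6.36, 8.61 and 5.38 in Cyp26-E2-KO. It rose by 0.90 (SE 0.21, adjusted p = 0.00561) and 0.91 (SE 0.21, adjusted p = 0.00708).

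Among the keratins, Krt8 had 31.2, 31.2 and 36.3 CPM in WT-Cyp26, 54.0, 50.1 and 49.5 in Cyp26-E1-KO and 37.5, 30.5 and 30.9 in Cyp26-E2-KO. The E1 libraries lay above all others. The log2 fold change was 0.64 (SE 0.10, adjusted p = 0.000262) in Cyp26-E1-KO, and in Cyp26-E2-KO its 95% interval was -0.21 to 0.21. Krt18 had 16.3, 17.0 and 18.2 CPM in WT-Cyp26, 16.5, 17.8 and 18.8 in Cyp26-E1-KO and 16.0, 12.4 and 15.7 in Cyp26-E2-KO. Its intervals were -0.20 to 0.29 and -0.47 to 0.03, so its partner Krt8 changed in E1 without a called change in Krt18. Krt19 had 1.00, 1.13 and 1.07 CPM in WT-Cyp26, 4.43, 1.94 and 3.13 in Cyp26-E1-KO and 2.95, 1.30 and 2.54 in Cyp26-E2-KO. It rose by 1.57 (SE 0.34, adjusted p = 0.0041) and 1.09 (SE 0.35, adjusted p = 0.0445), and the latter call was lost in 5 of 6 fits that left out 1 library (values 0.85 to 1.14, adjusted p 0.103 to 0.187). Krt7 had 0.399 to 0.486 CPM in WT-Cyp26, 0.565 to 1.37 in Cyp26-E1-KO and 0.366 to 1.35 in Cyp26-E2-KO, at 11 to 46 counts a library. It was not called in either deletion (1.13, adjusted p = 0.12, and 0.94, adjusted p = 0.234).

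Gata2 was 1.62 ± 0.422 CPM (SD, n = 3) in WT-Cyp26, 2.25 ± 0.407 in Cyp26-E1-KO and 1.63 ± 0.232 in Cyp26-E2-KO, and its log2 changes of 0.48 and 0.0070 were not called. Tfap2c was 19.7 ± 1.16, 18.7 ± 1.71 and 22.6 ± 0.718 CPM, with log2 changes of -0.07 and 0.20 that were not called. Elf5 had 0 to 8 counts in the 9 libraries.

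Without Cyp26-E1-KO replicate 2 all 5 called genes of E1 were still called: Hand1 at 2.39, Gata3 at 2.04, Krt19 at 1.82, Tfap2a at 0.93 and Krt8 at 0.65. Krt7 was then called as well (1.38, adjusted p = 0.0348). Tfap2c was 0.0013, where it had been -0.07.

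**Figure D3:**
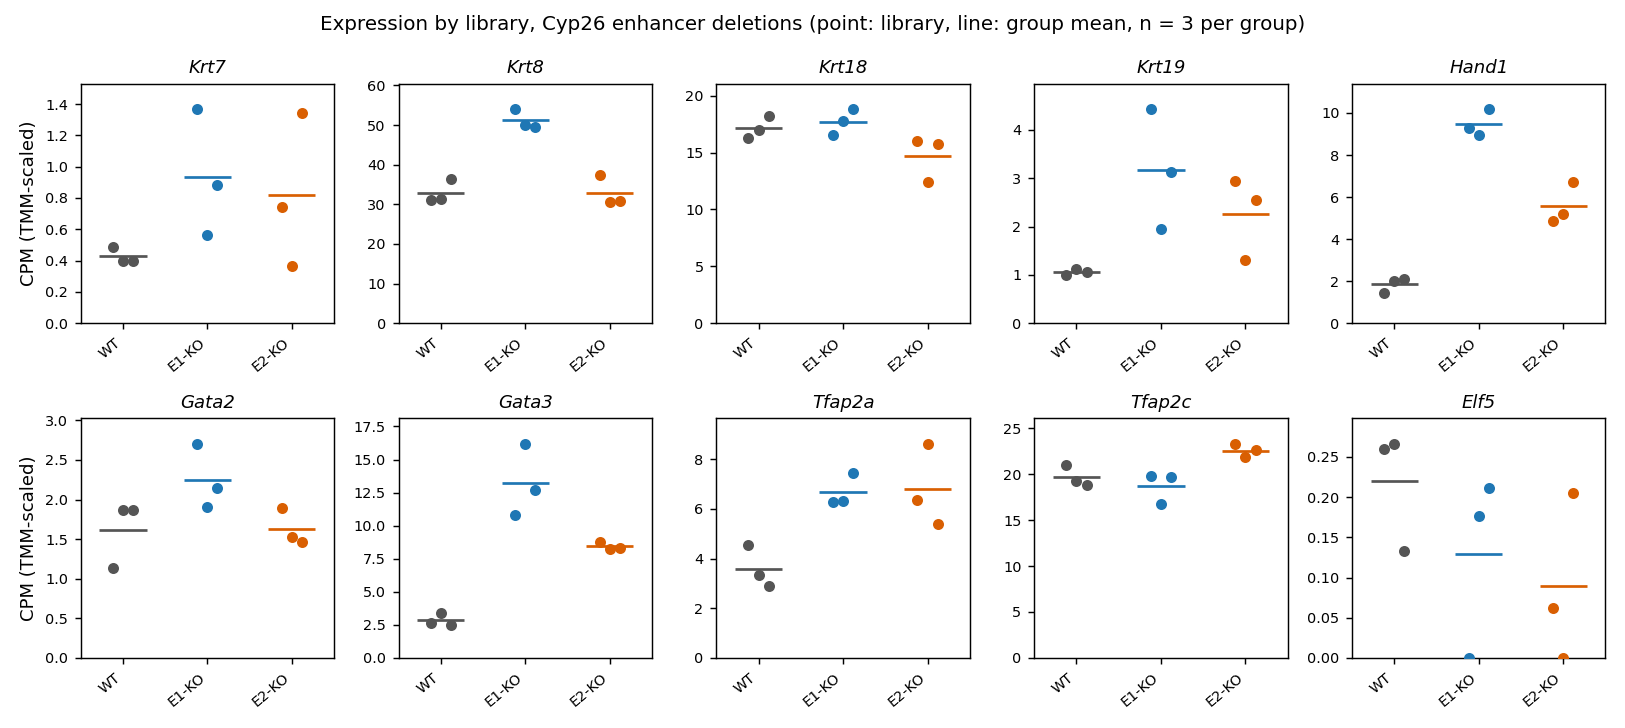
Level of each gene in CPM (vertical axis, linear from 0) in the WT-Cyp26 (WT), Cyp26-E1-KO (E1-KO) and Cyp26-E2-KO (E2-KO) libraries, with group means as lines (n = 3 per group). Hand1 and Gata3 rise in both deletions, more in E1-KO, and Krt18 stays between 12.4 and 18.8 CPM in every library.

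Compared with each other, the deletions differed in 3 of the 9 genes, all lower in Cyp26-E2-KO, where 4.49% of all genes were called, 2.02% higher and 2.46% lower. These were Hand1 at -0.76 (SE 0.17, adjusted p = 0.0223), Gata3 at -0.64 (SE 0.16, adjusted p = 0.036) and Krt8 at -0.64 (SE 0.10, adjusted p = 0.0018). Without Cyp26-E1-KO replicate 2, 3 of the 9 were called. Only 1 of the 9 was called without Cyp26-E1-KO replicate 3, without Cyp26-E2-KO replicate 1 and without Cyp26-E2-KO replicate 2. Tfap2a did not differ beyond the spread (95% interval -0.41 to 0.45).

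The endoderm markers summed to 993 to 1040 CPM in WT-Cyp26, 1406 to 1741 in Cyp26-E1-KO and 1331 to 1373 in Cyp26-E2-KO. Of the 14, 5 were higher and 3 lower in Cyp26-E1-KO, and 9 higher and 0 lower in Cyp26-E2-KO. The extraembryonic mesoderm markers summed to 148 to 152, 225 to 296 and 192 to 200 CPM. Without Cyp26-E1-KO replicate 2, which held both highest values, the E1 sums were 1406 to 1477 CPM for endoderm and 225 to 243 for extraembryonic mesoderm. Their part in the changes of Hand1, Gata3 and the keratins was not tested. Among the other trophoblast genes, 7 of 15 were higher and 2 lower in Cyp26-E1-KO, and 5 higher and 1 lower in Cyp26-E2-KO. Cdx2 was 2.56 ± 0.366 CPM (n = 3) in WT-Cyp26 and 4.27 ± 1.05 in Cyp26-E1-KO (log2 fold change 0.73, adjusted p = 0.0245), and Eomes rose by 0.90 and 0.84 in E1 and E2. Dlx3, in contrast, fell by 1.21 (SE 0.19) and 1.39 (SE 0.19). Among other intermediate filament and desmosome genes, 4 of 18 were higher and 2 lower in Cyp26-E1-KO, and 3 higher and 0 lower in Cyp26-E2-KO. For all these lists, the share called over all genes was 25.3% in Cyp26-E1-KO and 17.5% in Cyp26-E2-KO. Dsp (desmoplakin), the largest change of the list in Cyp26-E1-KO, fell by 0.74 (SE 0.11, adjusted p = 0.000271). Vim, the mesenchymal filament protein, rose by 0.72 and 0.55 in E1 and E2, and Jup (plakoglobin) by 0.57 and 0.47.

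**Figure D4:**
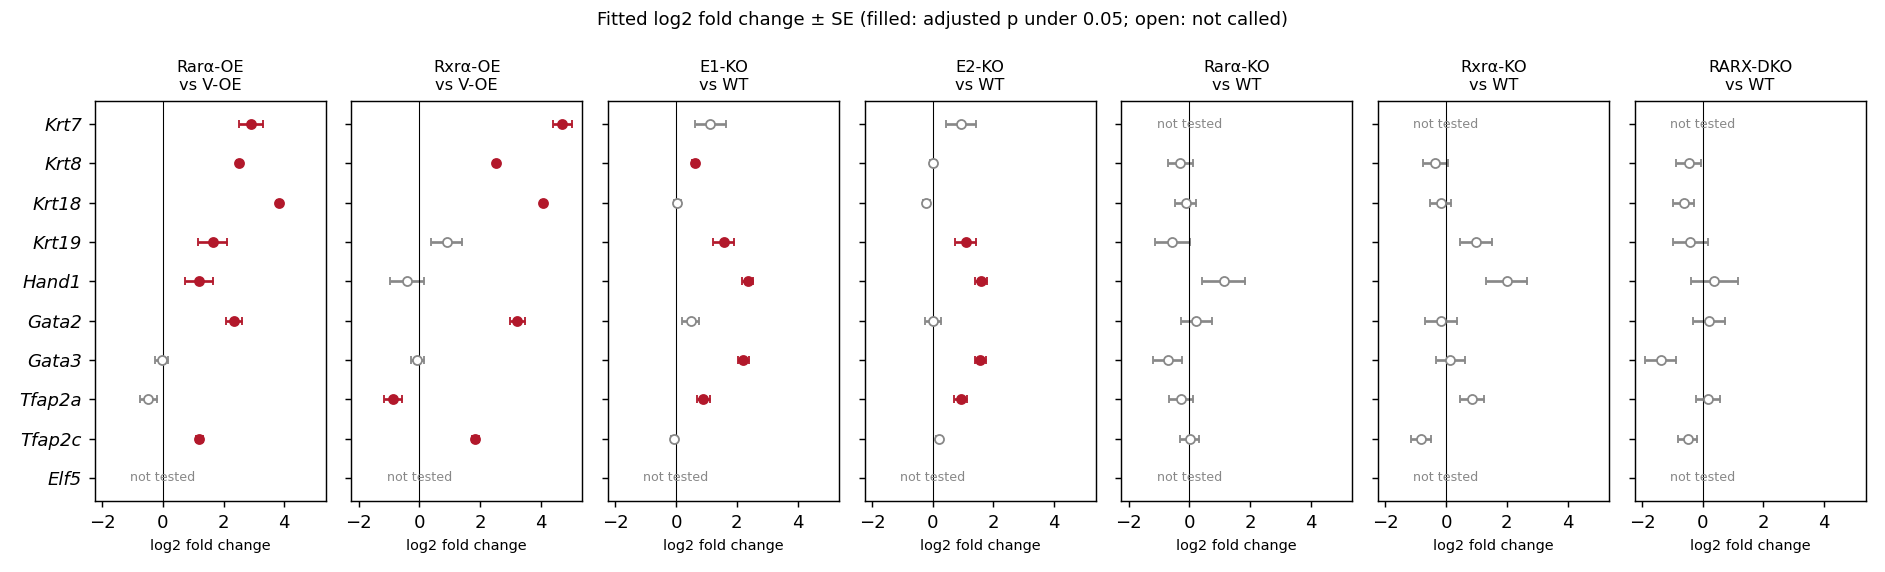
Fitted log2 fold change with its standard error (horizontal axis) of each gene in the 7 comparisons of a mutant with its control. Filled points passed the adjusted threshold of 0.05 (edgeR). Krt8, Krt18, Gata2 and Tfap2c were called higher with both receptors, and Krt19, Hand1, Gata3 and Tfap2a in both enhancer deletions. Krt8 was also called higher in Cyp26-E1-KO, Krt19 higher in Rarα-OE and Tfap2a lower in Rxrα-OE. The filled points of Krt7 with both receptors and of Hand1 in Rarα-OE are a description, given how these genes passed the filter. None of the 8 tested was called in a knockout.

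Loss of the receptors called none of the 8 tested genes, in a table whose replicates differed more than those of the overexpression table. In Rarα-KO against WT-RARX 0 of 8 were called, where 0.645% of all genes were (0.389% higher, 0.255% lower), and 0 of the 8 had an unadjusted p under 0.05 (edgeR), against 11% of all genes. In Rxrα-KO 0 of 8 were called, where 2.47% of all genes were (1.28% higher, 1.20% lower), and 3 had an unadjusted p under 0.05, as did 16.0% of all genes. In RARX-DKO 0 of 8 were called, where 2.24% of all genes were (1.05% higher, 1.19% lower), and 1 had an unadjusted p under 0.05, as did 14.4% of all genes. DESeq2 called 0 in each, and gave no adjusted p for Hand1 in any of the 3. Without the filter on low counts 2 genes were called in Rxrα-KO, Hand1 at 1.99 (adjusted p = 0.0297) and Tfap2c at -0.83 (adjusted p = 0.038), and Gata3 in RARX-DKO at -1.38 (adjusted p = 0.0309).

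The largest rise in Rxrα-KO was that of Hand1, which had 0.645 and 0.768 CPM in WT-RARX and 0.911 and 4.83 in Rxrα-KO (7 and 38 counts). Its log2 fold change was 2.00 (SE 0.68, adjusted p = 0.15, edgeR), and without Rxrα-KO replicate 1 it was 2.75. Hand1, at 7 and 10 counts in WT-RARX, passed the filter only through Rarα-KO and Rxrα-KO replicate 2. These values are therefore a description. The 2 Rxrα-KO libraries differed in the same direction for 9 of the 10 genes, replicate 2 being higher: Krt18 had 8.85 and 23.4 CPM, Krt8 26.8 and 61.2, Krt19 1.95 and 5.97 and Gata3 3.25 and 10.5. In RARX-DKO replicate 2 was higher for 8 of 10. For Krt8 and Krt18 the sign in Rxrα-KO turned without replicate 1, from -0.35 to 0.13 and from -0.18 to 0.36, none of which was called.

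Gata3 had 6.82 and 5.68 CPM in WT-RARX, 3.32 and 4.26 in Rarα-KO, 3.25 and 10.5 in Rxrα-KO and 1.70 and 3.13 in RARX-DKO. The RARX-DKO libraries lay below both controls, and the log2 difference was -1.38 (SE 0.51, adjusted p = 0.217). Tfap2c had 21.8 and 19.0 CPM in WT-RARX, 18.5 and 22.8 in Rarα-KO, 8.20 and 15.0 in Rxrα-KO and 18.9 and 10.1 in RARX-DKO. In Rxrα-KO its log2 difference was -0.81 (SE 0.32, adjusted p = 0.228), and the 224 tested genes within 10 Mb of it had a median of -0.30, 18 of them called lower. Tfap2a had 3.32 and 2.84 CPM in WT-RARX and 4.82 and 6.35 in Rxrα-KO (0.86, adjusted p = 0.291). Krt18 had 19.1 and 17.4 CPM in WT-RARX, 17.7 and 15.8 in Rarα-KO and 11.2 and 12.4 in RARX-DKO, and its 95% interval in RARX-DKO was -1.38 to 0.12. Krt7 had 4 to 11 counts and Elf5 0 to 4 counts in the libraries of this table.

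**Figure D5:**
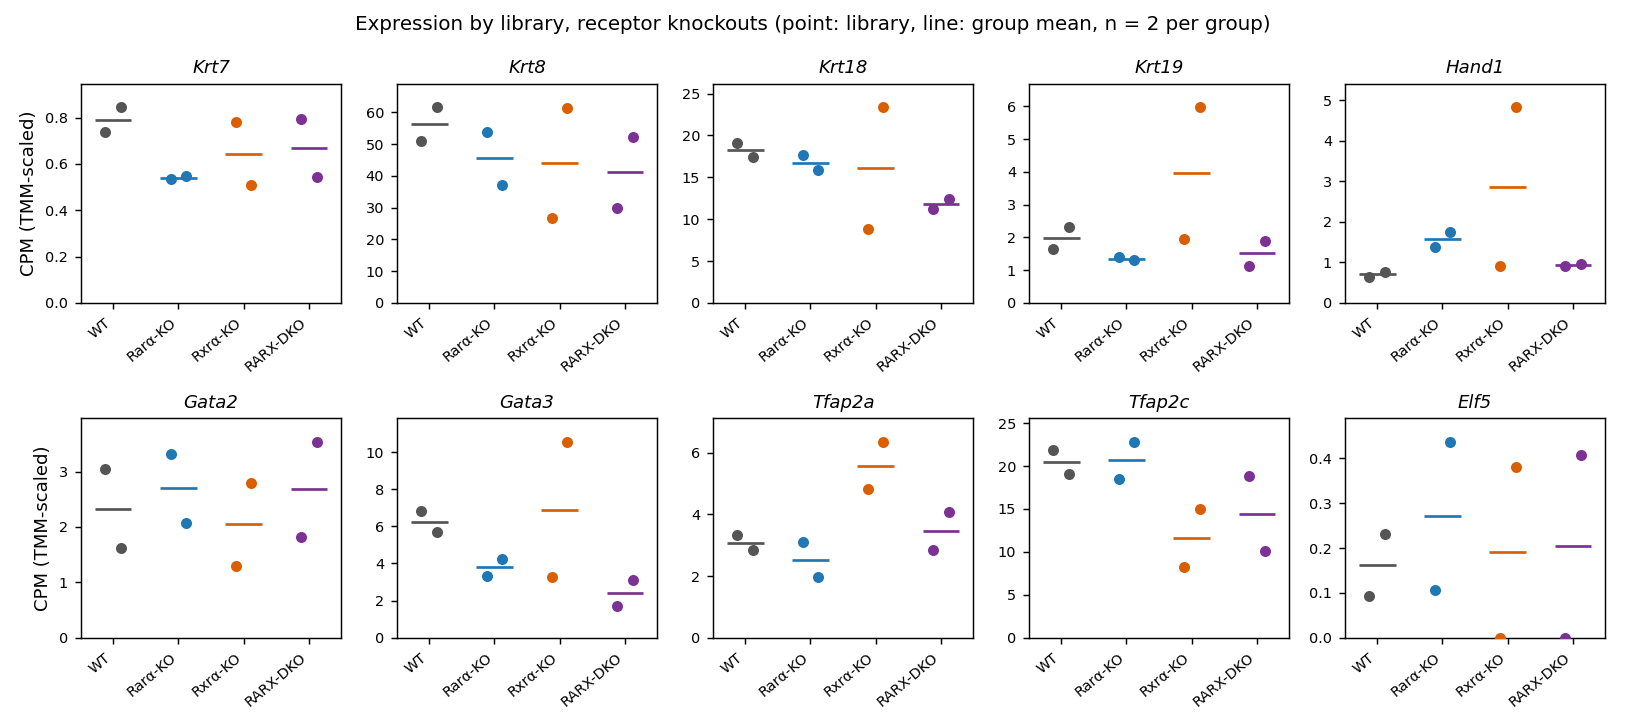
Level of each gene in CPM (vertical axis, linear from 0) in the WT-RARX (WT), Rarα-KO, Rxrα-KO and RARX-DKO libraries, with group means as lines (n = 2 per group). The 2 Rxrα-KO libraries lie far apart, for example at 8.85 and 23.4 CPM for Krt18 and 0.911 and 4.83 for Hand1.

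Between the knockouts 0 of the 8 were called in each of the 3 comparisons, whatever the direction. For Rxrα-KO against Rarα-KO 5.38% of all genes were called (2.19% higher, 3.19% lower), for RARX-DKO against Rarα-KO 0.0122% (0% higher, 0.0122% lower) and for RARX-DKO against Rxrα-KO 3.5% (2.01% higher, 1.48% lower). At an unadjusted p under 0.05 the counts were 3, 0 and 3, against 21.9%, 3.42% and 18.2% of all genes, DESeq2 called 0 in each, and without the filter the counts were 1, 0 and 1. Without Rxrα-KO replicate 1 they were 1 for Rxrα-KO against Rarα-KO and 2 for RARX-DKO against Rxrα-KO. Of the related genes, Krt20, an epithelial keratin, passed. It had 54 and 83 counts in WT-RARX, 8 and 7 in Rarα-KO (log2 fold change -2.79, SE 0.45, adjusted p = 0.022) and 1 and 2 in RARX-DKO (adjusted p = 0.000954). Dlx3 fell by 1.94 in Rxrα-KO (SE 0.46, adjusted p = 0.0415) and Fgfr2 by 2.3 in RARX-DKO (SE 0.31, adjusted p = 0.00193). In all, 0 of 15 other trophoblast genes were called in Rarα-KO, 1 in Rxrα-KO and 1 in RARX-DKO, all lower. Of the 17 other filament and desmosome genes 0 were higher and 1 lower in Rarα-KO, 2 higher and 1 lower in Rxrα-KO and 0 higher and 2 lower in RARX-DKO. Endoderm markers summed to 534 to 585 CPM in WT-RARX, 450 to 510 in Rarα-KO, 808 to 900 in Rxrα-KO and 462 to 521 in RARX-DKO. Of the 13 tested, 1 was lower in Rarα-KO, 2 were higher in Rxrα-KO and 7 lower in RARX-DKO. Against WT-RARX, the share called over all genes was 0.645% in Rarα-KO, 2.47% in Rxrα-KO and 2.24% in RARX-DKO.

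Over the 23 libraries, with log2 CPM set to a mean of 0 and an SD of 1 within each table, the 5 genes whose pattern was most like that of Krt8 among 11951 were Gprc5c (Pearson's r = 0.87), Atxn1l (0.86), Prag1 (0.86), Epha1 (0.86) and Hsdl1 (0.85). For Krt18 they were Trabd (0.79), Abhd12 (0.78), Arid3a (0.77), Fbxw5 (0.77) and Chpf2 (0.76). These are descriptions without a test, and the libraries share their groups and depth.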

How the data were processed

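RNA-seq was analysed in 23 libraries. The 32 4C-seq and 20 ChIP-seq and input samples were not used here. The values are raw read counts per gene as deposited by the authors. The submitters' processing notes name build mm10 and the tools MACS2 2.2.7.1, Bowtie2 2.3.1, HISAT2 2.1.0, DESeq2 1.18.1 and HTSeq 0.9.1, without saying which made these tables. An edgeR model (version 4.0.16) was fitted per table over its groups, using the robust quasi-likelihood test on TMM-scaled libraries, after genes that failed filterByExpr (minimum count 10) were removed. P-values were adjusted by Benjamini-Hochberg over the 16445, 16914 and 18768 genes tested in the knockout, overexpression and enhancer tables, with a threshold of 0.05. The SE is the absolute log2 fold change over the root of the F statistic, and intervals are 95%. Lengths are those of the principal transcripts of GENCODE vM21. Likeness used log2 CPM with a prior count of 2, over genes tested in all 3 tables with a mean log2 CPM of 1 or more. Replicates are called biological in the series' design text. The fits were tested on simulated data.

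The 10 genes, the related lists and the naming rule were chosen with earlier results of these data known. By that rule all 10 genes were named, up to 4 passing genes of each list per comparison with the largest absolute log2 fold change, the 5 genes most alike, and neighbours within 10 Mb. Other genes named (Cdx2, Eomes, Gata6, Sox17, Krt8-ps, Rara, Rxra, Cyp26a1 and Cyp26b1) were chosen after their values were seen. The alternatives were DESeq2 size factors, library totals, no filter, DESeq2 1.42.0, a fit of the compared groups only, the replicate number as a block, and leaving out each library.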

Additional observations from a re-analysis of the deposited data

How the results depend on the processing

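Of the alternative fits of single genes, 581 kept direction and call, 28 reversed, 18 lost and 6 gained a call; of the counts of genes called, 116 stayed within 1.5 times and 10 moved. Without the filter on low counts 2 of the 10 genes were called in Rxrα-KO against WT-RARX, and 1 each in RARX-DKO against WT-RARX, Rxrα-KO against Rarα-KO and RARX-DKO against Rxrα-KO. Leaving out 1 library gave 0 to 1, 0 to 1 and 0 to 2 for Rxrα-KO against WT-RARX, Rxrα-KO against Rarα-KO and RARX-DKO against Rxrα-KO, and 1 to 3 for Cyp26-E2-KO against Cyp26-E1-KO. Where a group then held 1 library, it was assumed to vary like the other groups. None of the reversed values was called: with library totals only Gata3 was 0.0066 in Rarα-OE and 0.036 in Rxrα-OE. Leaving out 1 library gave, in Rarα-KO, Gata2 -0.17 to 0.75, Tfap2a -0.64 to 0.013 and Tfap2c -0.14 to 0.16. In Rxrα-KO it gave Krt8 -1.06 to 0.13, Krt18 -1.03 to 0.36, Krt19 -0.017 to 1.58, Gata2 -0.81 to 0.35 and Gata3 -0.93 to 0.76. In RARX-DKO Gata2 ran from -0.33 to 0.72 and Tfap2a from -0.10 to 0.41. Gata3 ran from -0.22 to 0.20 in Rarα-OE and from -0.25 to 0.17 in Rxrα-OE. Tfap2c ran from -0.11 to 0.0013 in Cyp26-E1-KO, and in Cyp26-E2-KO Krt8 from -0.10 to 0.087 and Gata2 from -0.20 to 0.13. Same-numbered libraries did not deviate together (correlations of -0.21 to 0.12 in the knockout, -0.014 to 0.0066 in the overexpression and -0.056 to 0.11 in the enhancer table), so the numbers were not taken as a pairing. With the replicate number as a block 6 genes were called in Rarα-OE, Hand1 being lost (adjusted p = 0.055, edgeR), Gata3 in Rxrα-KO was -0.0071 and Krt8 in Cyp26-E2-KO -0.0024. Counts over all genes moved more. In Rarα-KO 106 became 551 without the filter, 271 with DESeq2 and 588 with the compared groups only, in Rxrα-KO 407 became 1084 and, with DESeq2, 654, and in RARX-DKO 368 became 981 and 575. Without the filter 885 became 1840 for Rxrα-KO against Rarα-KO, and 575 became 1366 (30 with the compared groups only) for RARX-DKO against Rxrα-KO. For RARX-DKO against Rarα-KO 2 became 58, 19 with DESeq2, 1 with library totals and 0 with the compared groups only. In Rarα-OE 4829 became 2730 with DESeq2, in Cyp26-E2-KO 3280 became 5731 with the compared groups only, and for Cyp26-E2-KO against Cyp26-E1-KO 842 became 1384, 1332 with DESeq2 and 339 with the compared groups only. The cause was not tested. Elf5, and Krt7 in the knockout table, were too low to test.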

Other observations

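Surface ectoderm genes, which share Tfap2a and simple keratins with the trophoblast, were higher in 10 of 13 tested in Cyp26-E1-KO and in 6 of 13 in Cyp26-E2-KO, with 0 lower in both (edgeR, adjusted p under 0.05). The median log2 fold changes were 1.03 and 0.76, against -0.0082 and 0.00011 over all genes. Grhl2, a grainyhead factor of surface epithelia, rose by 1.41 (SE 0.11) and 0.95 (SE 0.11), and the claudin Cldn6 by 1.49 (SE 0.13) and 0.99 (SE 0.13). With receptor overexpression 2 of 13 were higher and 1 lower in Rarα-OE, and 6 higher and 3 lower in Rxrα-OE. Grhl2 fell by 1.49 and 1.25 in Rarα-OE and Rxrα-OE. Over all genes 28.6% were called in Rarα-OE, 60.2% in Rxrα-OE, 25.3% in Cyp26-E1-KO and 17.5% in Cyp26-E2-KO. In the knockouts 1 of 12 was higher in Rxrα-KO and 0 were called in Rarα-KO and RARX-DKO. Over all genes 2.47%, 0.645% and 2.24% were called in these 3.

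Of the BMP signalling genes, 6 of 20 were higher and 1 lower in Cyp26-E1-KO, 5 higher and 1 lower in Cyp26-E2-KO, 5 of 18 higher and 2 lower in Rarα-OE and 8 higher and 3 lower in Rxrα-OE. Over all genes 25.3%, 17.5%, 28.6% and 60.2% were called in these comparisons. The ligand Bmp4 was 24.5 CPM in WT-Cyp26, 50.3 in Cyp26-E1-KO and 39.4 in Cyp26-E2-KO, and 22.2 CPM in V-OE, 7.95 in Rarα-OE and 6.81 in Rxrα-OE. In Rxrα-KO it rose by 1.45 (SE 0.23, adjusted p = 0.0061, edgeR). Bmp2, another ligand, had 3 and 2 counts in V-OE and 32 and 36 in Rxrα-OE, where Bmp4 fell by 1.69 (SE 0.18). Id2, a target of BMP signalling, rose by 1.45 (SE 0.11) and 0.89 (SE 0.11) in the 2 deletions.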
